A study of Mus musculus with 26 samples.

Results

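The 63 genes described here encode cytosolic ribosomal proteins or carry a ribosomal protein symbol on the array. They were taken from 19937 measured genes by symbol: Rpl or Rps followed by a digit, or Rplp0, Rplp1, Rplp2 or Rpsa, where a probe set was annotated with that symbol alone. Of the 63, 54 encode subunits of the common ribosome. The other 9 are paralogs (Rpl3l, Rpl7l1, Rpl10l, Rpl32l, Rpl39l and Rps27l), a retrogene (Rps23rg1), a pseudogene in RefSeq (Rps4l) and a protein that binds Rps19 (Rps19bp1). The symbols were matched without regard to measured values, yet earlier results of these data were known when the set was chosen. The probe set of each gene was the one with the highest mean signal over all arrays. A further 20 ribosomal protein symbols, among them Rpl3, Rpl11, Rps24 and Rps26, occurred only on probe sets shared with other genes and were not analysed here.

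The study profiled C57BL/6 mouse cells on 26 Affymetrix arrays to compare MLL-AF9, a leukaemic fusion of MLL and AF9, in cells of stem cell and of progenitor origin. Long-term haematopoietic stem cells (LT-HSC, n = 4) and granulocyte macrophage progenitors (GMP, n = 4) had been sorted by flow cytometry from wild-type bone marrow. The other arrays held immortalized lines derived from either kind of cell and harvested from liquid medium, with doxycycline (dox) or without it. The lines of LT-HSC origin gave 2 arrays with dox and 3 without at 48 h, and 3 of each at 72 h. The lines of GMP origin gave 4 arrays with dox and 3 without, all at 48 h. Lines named B6-1, B6-2 and B6-3 occurred in both origins and F6-6 in GMP-derived lines alone. The LT-HSC-derived 48 h group with dox lacked B6-1, and so did the GMP-derived group without dox. The inducible construct, its promoter, the age of the animals, the sort gates and whether the hours run from adding or from withdrawing dox were not given in the sources used here. Replicates are labelled biological, yet no source ties the sorted ones to different animals, and p-values therefore reflect the spread among these arrays alone.

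The deposited values are log2 signals, with array medians from 5.81 to 5.91 and replicate correlations from 0.979 to 0.991 across probe sets. Of the ribosomal protein genes, 39 lay above the 99th percentile of signal and 4 below the median. All 7 measured LT-HSC markers (Mecom and Procr among them) were above the array median in sorted LT-HSC, where their summed log2 signal was 11.81 to 12.00, against 3 of 7 and 8.51 to 8.69 in sorted GMP. All 8 GMP markers (Mpo and Elane among them) were above it in sorted GMP and in every cultured group. Late neutrophil markers differed with dox: their summed log2 signal was 13.18 to 13.30 in GMP-derived lines without dox and 10.17 to 10.73 with it, and 11.85 to 13.28 against 10.86 to 11.61 in LT-HSC-derived lines at 72 h. None of the 5 T and NK cell markers was above the array median in any group.

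A ribosome pairs a small subunit, which reads the mRNA, with a large one, which joins amino acids. Each subunit protein is made in about equal amount, partly because most of their mRNAs begin with a run of pyrimidines, the TOP motif, through which mTOR and the factor Larp1 control their translation together. Shortage of single subunit proteins impairs blood formation in humans and mice, as in Diamond-Blackfan anaemia.

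Start sequences are shown because the TOP motif lies there. The set holds called members and, as examples of a long run, Rps18 and Rps6. RefSeq (build GRCm38.p6) held a promoter for 51 of the 63 genes, and the first entry per gene was used. Each stretch runs 5′ to 3′ from 25 bases before the annotated start to 15 bases from it onward, and capitals mark the unbroken run of C and T that holds the first transcribed base.
Rps15a (chr7:118116133-118116172, minus strand): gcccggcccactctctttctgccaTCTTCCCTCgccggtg
Rpl7a (chr2:26910782-26910821, plus strand): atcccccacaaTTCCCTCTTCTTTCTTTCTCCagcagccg
Rps18 (chr17:33955651-33955690, minus strand): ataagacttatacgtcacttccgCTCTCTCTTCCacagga
Rps6 (chr4:86857353-86857392, minus strand): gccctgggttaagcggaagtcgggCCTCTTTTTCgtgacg
Rpl14 (chr9:120571492-120571531, plus strand): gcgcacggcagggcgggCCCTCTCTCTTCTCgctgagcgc
Rpl22 (chr4:152325701-152325740, plus strand): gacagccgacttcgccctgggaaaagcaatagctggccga
Rpl6 (chr5:121204476-121204515, plus strand): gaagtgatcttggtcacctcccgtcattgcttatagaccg
Rps27l (chr9:66946061-66946100, plus strand): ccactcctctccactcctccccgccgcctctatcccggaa
Rpl12 (chr2:32961687-32961726, plus strand): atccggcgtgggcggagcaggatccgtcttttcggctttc
Rpl24 (chr16:55966250-55966289, plus strand): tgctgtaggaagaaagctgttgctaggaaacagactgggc
Rpl41 (chr10:128549154-128549193, minus strand): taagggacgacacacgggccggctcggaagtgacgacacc
Rpl10 (chrX:74270791-74270830, plus strand): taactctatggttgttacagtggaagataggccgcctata
Rpsa (chr9:120127741-120127780, plus strand): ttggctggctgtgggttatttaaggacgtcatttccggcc

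The first 5 of these have such a run. Rpl22, Rpl6, Rps27l, Rpl12, Rpl24, Rpl41, Rpl10 and Rpsa have none at the annotated start. A C at the first base followed by 4 bases of C or T was present in 9 of 43 subunit genes with a promoter (20.9%) and in 2.5% of 26974 other genes. Anywhere from 10 bases before the start to 15 after, the same 5 letters were present in 21 of 43 (48.8%) and in 30.8% of other genes. Of the printed genes without a run at the start, Rpl6, Rps27l and Rpl12 had them there. In the window from 250 bases before the start to 50 after it, the ETS factor core CCGGAAG on either strand was present in 16 of the 43 (37.2%) and in 9.1% of other genes. It was found in Rpl6, Rps6, Rps18, Rps27l, Rpl41 and Rpsa and not in Rps15a, Rpl7a, Rpl22, Rpl14, Rpl12, Rpl24 or Rpl10. The letters AAGATGGC, known from YY1 sites, were in 1 of 43 (2.3%) against 2.9%, the E-box CACGTG in 4 (9.3%) against 7.2%, and TATAAA in 4 (9.3%) against 14.2%. These are matches of letters in annotated windows, not measured sites.

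The question of the first comparisons was how dox changed the lines. In GMP-derived lines at 48 h, 53 of 54 subunit genes had a positive difference (dox minus no dox), with a median over all 63 genes of 0.0785 log2 against 0.014 for all measured genes. Individually, 5 genes rose (Rpl12, Rps15a, Rpl30, Rpl22 and Rpl6) and 1 fell (Rpl3l) by limma's test at an adjusted p under 0.05. These are 7.9% and 1.6% of the members, while 5.75% of all measured genes were called higher and 5.18% lower. The share called higher is close to the background. With the mean of all probe sets of a gene in place of the brightest, 13 members were higher against 5.82% of all genes, with array weights 10 against 6.92%, after a filter on dim probe sets 12 of 59 against 12.2%, and with these groups fitted alone 3 against 4.61%. In bulk samples, fewer cells of a type and less RNA per cell cannot be told apart.

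Rpl12, at the base of the stalk that recruits elongation factors, had signals of 6.62, 6.40, 6.81 and 7.03 with dox and 5.82, 5.78 and 5.85 without. The groups did not overlap, and every array with dox was higher. The gene rose by 0.90 ± 0.16 log2 (SE, adjusted p = 0.00051 by limma), 1.86-fold, the largest dox difference among the 63 genes. Its probe set was dim, at the 59.5th percentile of signal.

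Rps15a, a small subunit protein, had signals of 10.01, 9.87, 10.10 and 10.38 with dox and 9.54, 9.21 and 9.89 without. The lowest array with dox lay just below the highest without, so the groups overlapped. The gene rose by 0.55 ± 0.12 (adjusted p = 0.0031 by limma), and within the 3 lines measured on both sides the difference ranged from 0.22 to 0.66. Without the B6-3 array without dox (replicate 2) the adjusted p was 0.0576.

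Rpl30, whose yeast counterpart controls the splicing of its own transcript, had signals of 9.09, 9.04, 9.17 and 9.24 with dox and 8.80, 8.58 and 9.02 without. The groups did not overlap, although F6-6 without dox came close to B6-3 with it. The gene rose by 0.33 ± 0.08 (adjusted p = 0.0095 by limma), which became 0.141 without the B6-3 array without dox.

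Rpl22, a large subunit protein that mice can lack with little loss outside lymphocytes, had signals of 8.96, 9.06, 9.07 and 9.07 with dox and 8.69, 8.84 and 8.65 without. Every array with dox was higher than every array without. The gene rose by 0.31 ± 0.08 (adjusted p = 0.0067 by limma), and the call held with each array left out in turn. Rpl6, also of the large subunit, had signals of 11.28, 11.36, 11.35 and 11.31 against 11.11, 11.19 and 11.09. It rose by 0.19 ± 0.05 (adjusted p = 0.0144 by limma), a call lost at 0.0634 without either the B6-2 or the F6-6 array without dox.

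**Figure D1:**
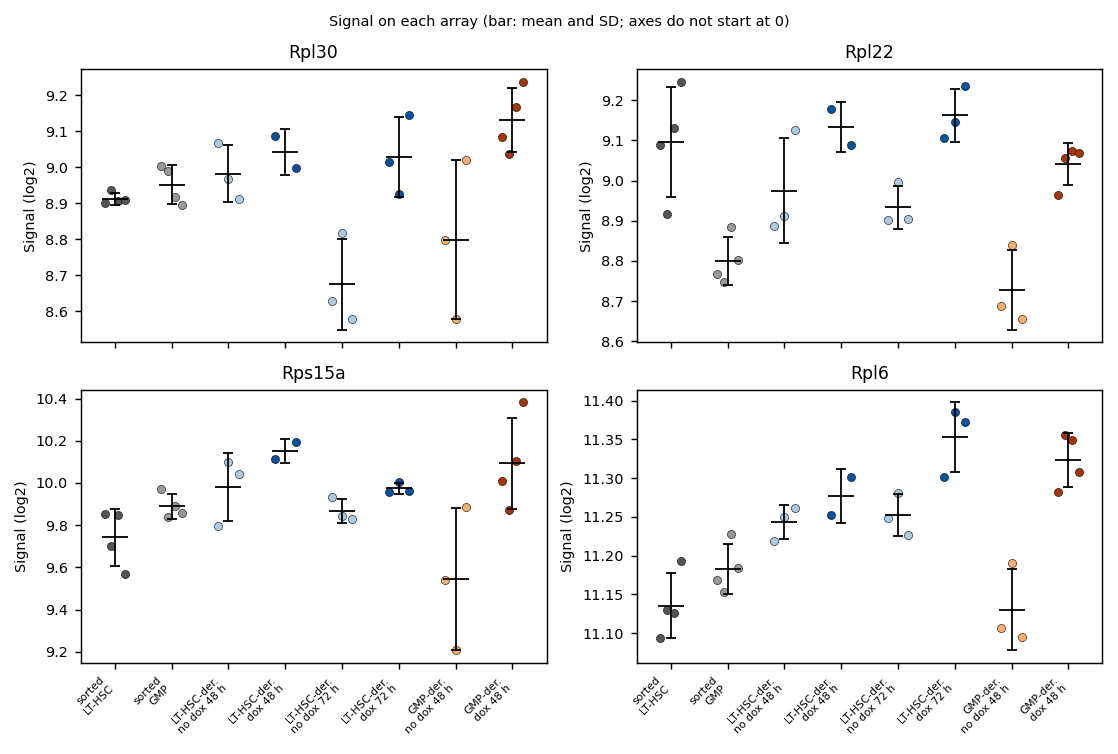
Log2 signal of Rpl30, Rpl22, Rps15a and Rpl6 on each array by group, with bars for the mean and SD; the axes do not start at 0. In GMP-derived lines the arrays with dox lie above those without, with overlap for Rps15a alone.

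Rpl3l, a paralog of Rpl3 known from muscle, moved the other way. Its signals were 5.27, 5.31, 5.01 and 5.10 with dox and 5.41, 5.42 and 5.53 without, below the array median throughout. It fell by 0.28 ± 0.08 (adjusted p = 0.0267 by limma). The call was lost without any of 4 single arrays (replicates 2 and 3 without dox, replicates 3 and 4 with dox), at adjusted p from 0.0714 to 0.113, and at 0.0867 with the line as a block. Its difference was below 0 in all 8 pairs of arrays of the same line, from -0.52 to -0.11 in GMP-derived lines.

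In LT-HSC-derived lines the offset had the same sign. At 72 h, 50 of 54 subunit genes had a positive difference, with a median of 0.081 over the 63 genes against -0.031 for all measured genes. Rpl30 was the 1 gene called (1.6% of the members), while 3.43% of all measured genes were called higher and 3.72% lower. At an unadjusted p under 0.05 there were 13 members (20.6%), against 20.2% of all measured genes. Rpl30 had signals of 9.01, 8.93 and 9.15 with dox and 8.63, 8.82 and 8.58 without, with no overlap, and rose by 0.36 ± 0.09 (adjusted p = 0.0158 by limma). The call was lost at 0.0671 without B6-2 lacking dox, at 0.0694 without B6-1 lacking dox, and at 0.098 without B6-1 with dox. Rpl22 differed by 0.23 (adjusted p = 0.093), with 9.11, 9.15 and 9.24 against 8.90, 9.00 and 8.90.

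At 48 h in LT-HSC-derived lines, 41 of 54 subunit genes had a positive difference and the median over the 63 genes was 0.034 against 0.0033 for all measured genes. No member passed limma's test, and 3 did so at an unadjusted p under 0.05 (4.76%, against 7.30% of all measured genes). Among all measured genes 0.155% were called higher and 0.286% lower. The group with dox held only 2 arrays.

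The centre of the 63 genes on each array, the median of their deviations from their own means over all arrays, shows the offset without a gene-wise test. It was 0.044 ± 0.019 (SD, n = 4) in GMP-derived lines with dox and -0.047 ± 0.028 (n = 3) without. In LT-HSC-derived lines at 72 h it was 0.054 ± 0.016 (n = 3) with dox and -0.021 ± 0.019 (n = 3) without, and at 48 h 0.039 ± 0.016 (n = 2) and 0.0046 ± 0.023 (n = 3). Within each of these 3 settings every array with dox was above every array without. Sorted LT-HSC were at -0.042 ± 0.020 (n = 4) and sorted GMP at -0.034 ± 0.0063 (n = 4). The median difference of the 63 genes was positive in all 3 settings under other scalings too: 0.073, 0.053 and 0.015 after quantile normalization and 0.065, 0.082 and 0.024 after median centring, in the order GMP-derived, LT-HSC-derived 72 h and 48 h. Late neutrophil and monocyte markers moved with dox. In GMP-derived lines 5 of 6 and 4 of 6 were called lower, beside 5.18% of all measured genes. In LT-HSC-derived lines 4 of 6 and 4 of 6 were lower at 72 h (3.72%), and 1 of 6 and 1 of 6 at 48 h (0.286%). None of these markers was called higher. Of 8 GMP markers 3, 2 and 2 were called lower in the same settings and none higher. Of 7 LT-HSC markers 1, 2 and 2 were called higher, beside 5.75%, 3.43% and 0.155% of all measured genes, and none lower. The LT-HSC markers summed to 9.52 to 9.80 with dox and 8.41 to 8.68 without in GMP-derived lines. In LT-HSC-derived lines they summed to 9.91 to 10.26 and 8.82 to 9.07 at 72 h, and to 9.87 to 10.18 and 8.91 to 9.42 at 48 h. In GMP-derived lines 4 of 6 neutrophil markers were above the array median with dox and 5 without, and the 6 monocyte markers summed to 10.08 to 11.36 with dox (5 above the median) and 11.11 to 12.11 without (6 above). At 72 h the monocyte sums were 10.75 to 11.06 and 11.89 to 12.28. The part of these cells in the result was not tested.

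**Figure D2:**
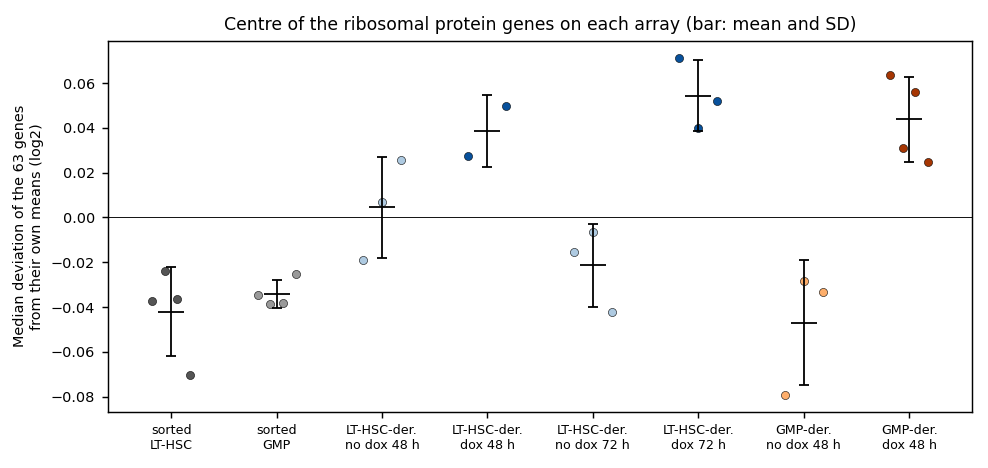
Each point is 1 array: the median deviation (log2) of the 63 genes from their own means over 26 arrays, by group, with bars for mean and SD. The groups with dox sit between 0.025 and 0.071, the groups without dox and the sorted groups between -0.079 and 0.026.

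Single lines gave the same sign. The median difference of the 63 genes was 0.11 in B6-2, 0.059 in B6-3 and 0.090 in F6-6 for GMP-derived lines, with 52, 39 and 49 of 54 subunit genes above 0. For LT-HSC-derived lines at 72 h it was 0.082 in B6-2, 0.048 in B6-3 and 0.12 in B6-1. The difference was positive in every line for 37 of 54 subunit genes in GMP-derived lines (68.5%, against 25.1% of all measured genes) and for 31 of 54 in LT-HSC-derived lines at 72 h (57.4% against 17.4%). No subunit gene was below 0 in every line in either setting, against 18.7% and 20.1% of all measured genes. At 48 h, with 2 lines, 32 of 54 subunit genes were above 0 in both (59.3% against 28.1%) and 4 below 0 in both (7.4% against 30.5%). In B6-3 the median over all measured genes was itself 0.040 in GMP-derived lines and 0.038 in LT-HSC-derived lines at 72 h.

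The size of the difference varied with signal. In GMP-derived lines the 15 subunit genes at or below the 99th percentile had a median difference of 0.18 and held all 5 genes called higher, while the 39 above it had a median of 0.075 and held none. All 39 had a positive difference, compared with 52.8% of the 72 other genes above the same percentile, whose median was 0.0052. In LT-HSC-derived lines at 72 h the shares were 92.3% and 72.2%, and at 48 h 76.9% and 72.2%. The medians of the 39 and of the 72 other genes were 0.0805 and 0.0404 at 72 h, and 0.0254 and 0.0392 at 48 h. At 48 h the other bright genes thus had the larger median. All 195 probe sets with a member's symbol gave the same order in GMP-derived lines: medians of 0.17 for the 43 with mean signal from 6 to 9, 0.16 for 41 from 9 to 11, 0.12 for 73 from 11 to 12 and 0.053 for 24 at 12 and over. The 14 probe sets under 6 had a median of -0.041. The brightest probe set on any array was at 13.08, and whether signal near the top of the range limits the differences was not tested.

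**Figure D3:**
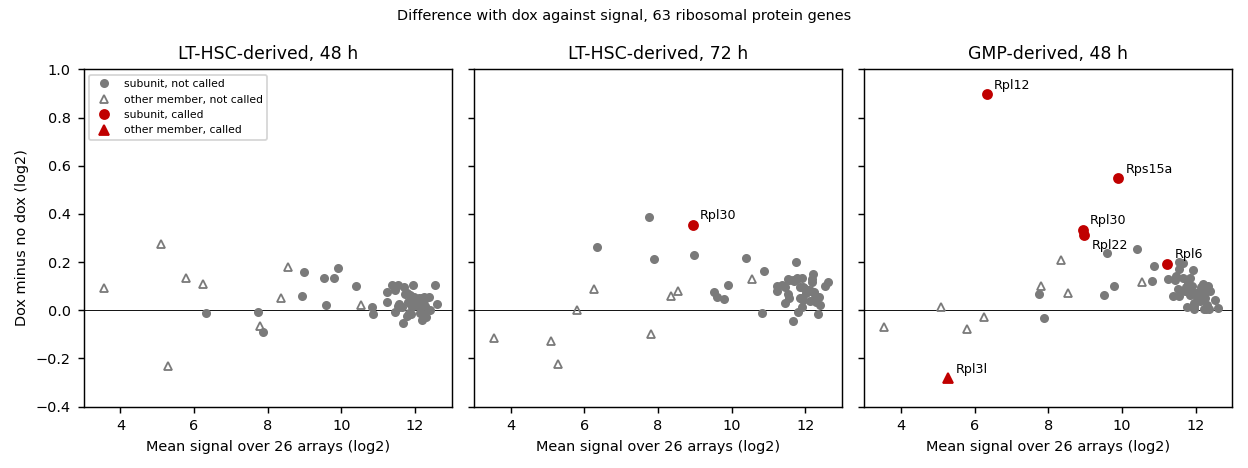
Difference with dox (log2, dox minus no dox) against mean signal over 26 arrays for the 63 genes in each setting; circles are subunits, triangles the 9 other members, red marks called genes. Bright genes cluster just above 0, and the called genes in GMP-derived lines, Rpl12, Rps15a, Rpl30, Rpl22 and Rpl6 above 0 and Rpl3l below, have lower signal.

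Large and small subunit symbols had median differences of 0.079 and 0.098 in GMP-derived lines and 0.090 and 0.081 in LT-HSC-derived lines at 72 h. The stalk proteins Rplp1 and Rplp2 differed by 0.19 (adjusted p = 0.060) and 0.24 (adjusted p = 0.057) in GMP-derived lines, and by -0.04 and 0.05 in LT-HSC-derived lines at 72 h. Rplp2 had signals of 9.67, 9.70, 9.78 and 9.64 with dox and 9.44, 9.52 and 9.41 without in GMP-derived lines, with no overlap. Rplp0, which anchors the stalk, differed by 0.01 and 0.04 in the same settings.

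Rps15a, called above, is among the genes linked to Diamond-Blackfan anaemia in humans. Of 5 further genes picked from those known from such anaemias or from Mdm2, the regulator of p53, none was called in the dox comparisons. The 5 do not cover the class: Rps10, also linked to Diamond-Blackfan anaemia, is outside them and was not called there either. Rps19, the first gene linked to Diamond-Blackfan anaemia, differed by 0.12 in GMP-derived lines and by -0.01 in LT-HSC-derived lines at 72 h. Rps14, linked to the 5q- syndrome in humans, differed by 0.10 and 0.08, and Rps7, which binds Mdm2, by 0.13 and 0.10. Rpl5 and Rpl23, which also bind Mdm2, differed by 0.08 and 0.12 and by 0.00 and 0.03. Rps6, the subunit phosphorylated by S6 kinases, differed by 0.04 and 0.10.

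Genes of the other lists, which cover the making and use of ribosomes, also rose with dox in lines of GMP origin. Of 18 translation factors and other genes with TOP mRNAs, 9 rose and none fell, with a median of 0.19. For these lists too, 5.75% of all measured genes were called higher and 5.18% lower. Eif4b, a cofactor of the helicase eIF4A, rose by 0.38 ± 0.06 (adjusted p = 6.3e-05 by limma), Eif3f by 0.34 ± 0.06 (adjusted p = 0.00077) and the nucleolar chaperone Npm1 by 0.33 ± 0.07 (adjusted p = 0.0031). Of 10 chaperones of ribosomal proteins, 5 rose, with a median of 0.35, among them Heatr3, which escorts Rpl5 and is likewise linked to Diamond-Blackfan anaemia in humans, by 0.50 ± 0.10 (adjusted p = 0.0012), and Pdcd2, which binds Rps2, by 0.48 ± 0.09 (adjusted p = 0.00055). Without the B6-3 array without dox, 2 chaperones were called. Of 13 RNA polymerase I factors 4 rose: Polr1a by 0.55 ± 0.08 (adjusted p = 6.3e-05), Polr1c by 0.52 ± 0.07 (adjusted p = 1e-05), Polr1b by 0.45 ± 0.10 (adjusted p = 0.0053) and Rrn3 by 0.38 ± 0.08 (adjusted p = 0.0027). Without the same array the adjusted p of Polr1b was 0.0919.

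Of 14 regulators of mTOR and TOP mRNAs, 3 rose in GMP-derived lines. Myc, which drives ribosome synthesis, rose by 0.50 ± 0.11 (adjusted p = 0.0032 by limma, 0.0578 without the B6-3 array without dox). Deptor, an inhibitor of mTOR, rose by 0.36 ± 0.09 (adjusted p = 0.0092). Larp1, which binds TOP mRNAs, rose by 0.22 ± 0.07 (adjusted p = 0.038, 0.184 with the line as a block and 0.168 without the B6-3 array without dox). No gene of the 4 lists fell. In LT-HSC-derived lines at 72 h, Eif3f rose by 0.23 ± 0.07 (adjusted p = 0.045, 0.0639 with the block) and Polr1a by 0.29 ± 0.09 (adjusted p = 0.047), and the counts were 1 of 18, 0 of 10, 1 of 13 and 0 of 14, beside 3.43% of all measured genes. Both calls were lost after quantile normalization (0.0599 and 0.0696), after median centring (0.074 and 0.0618) and with these groups fitted alone (0.287 and 0.177). Leaving out single arrays raised the adjusted p to as much as 0.219 for Eif3f and 0.205 for Polr1a. With each array left out, the 4 counts ranged from 0 to 4, 0 to 1, 0 to 2 and 0 to 0. At 48 h all 4 counts were 0, with medians of 0.047, 0.043, 0.056 and 0.042. Fau, the ribosomal protein Rps30 made as a fusion, was the 1 gene of its kind measured and differed by 0.09, -0.04 and -0.05 in GMP-derived lines and in LT-HSC-derived lines at 72 h and 48 h.

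The difference between dox effects was tested directly. Between origins at 48 h (GMP-derived minus LT-HSC-derived) no member was called, 3 had an unadjusted p under 0.05 in limma's test (4.76%, against 8.74% of all measured genes), and 0.0702% of all measured genes were called higher and 0.161% lower. Rpl12 had the largest difference, 0.91 ± 0.25 (adjusted p = 0.16). Between times in LT-HSC-derived lines (72 h minus 48 h) no member was called and 2 had an unadjusted p under 0.05 (3.17%). No gene of the whole array was called there, which is 0% in either direction, and 1132 had an unadjusted p under 0.05 (5.68%). Of the other lists, Polr1c was called between origins (0.48 ± 0.10, adjusted p = 0.049), a call lost under median centring at 0.0579 and with the line as a block at 0.0915.

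Origin itself was compared at 48 h. With dox, no member was called between LT-HSC-derived and GMP-derived lines by limma's test, none had an unadjusted p under 0.05 (against 10% of all measured genes), and the median difference was 0.0025, while 1.17% of all measured genes were called higher and 0.943% lower. Without dox, Rpl12 was higher in LT-HSC-derived lines by 0.65 ± 0.17 (adjusted p = 0.0221) and Rps15a by 0.43 ± 0.13 (adjusted p = 0.0413), and the median difference of the 63 genes was 0.046. These 2 calls are 3.2% of the members, against 3.52% of all measured genes called higher and 3.28% lower. Rpl12 had signals of 6.61, 6.33 and 6.45 in LT-HSC-derived lines, above the GMP-derived arrays given before. Rps15a had 9.80, 10.10 and 10.04, which overlapped them. Each call was lost without any of 4 arrays: for Rpl12 replicates 1 and 3 of LT-HSC-derived and 1 and 2 of GMP-derived lines (0.0559 to 0.0932), and for Rps15a replicates 2 and 3 of LT-HSC-derived and 1 and 2 of GMP-derived lines (0.0973 to 0.31). The GMP-derived arrays without dox are also the controls of the dox comparison, so both comparisons share them. Mast cell and basophil markers moved with origin: without dox 5 of 6 were called higher in LT-HSC-derived lines, with summed log2 signals of 11.56 to 12.70 against 8.63 to 10.90, and with dox 1 of 6 was. Without dox 3 of 8 GMP markers and 1 of 6 late neutrophil markers were lower and 2 of 5 megakaryocyte markers higher. The part of these cells in the result was not tested.

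Cultured lines were then set against the sorted cells of their origin. Immortalization, culture and the fusion change together here and cannot be told apart. The LT-HSC-derived lines B6-2 and B6-3 gave arrays with dox at both times, and B6-1, B6-2 and B6-3 did so without dox. The fit treated arrays of the same line as independent, so p-values of these comparisons do not measure the spread between lines alone. In LT-HSC-derived lines with dox (mean of 48 h and 72 h) 20 members were higher than in sorted LT-HSC and 1 was lower, while 17.9% of all measured genes were called higher and 19.2% lower. The 20 are 31.7% of the members and the 1 is 1.6%. The median over the 63 genes was 0.075 against -0.028 for all measured genes, with 0.12 for large and 0.026 for small subunit symbols. With the mean of all probe sets 30 were higher, against 17.9% of all genes. Neutrophil, monocyte, GMP and mast cell markers were higher in this comparison too (4 of 6, 5 of 6, 8 of 8 and 3 of 6 called), and LT-HSC and megakaryocyte markers lower (7 of 7 and 5 of 5), as were 1 neutrophil and 1 mast cell marker. Their part in the result was not tested.

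Rps27l, a paralog of Rps27 and a known p53 target, changed most. Its signals were 9.54, 9.25, 9.52 and 9.31 in sorted LT-HSC, 10.87 and 10.83 in the lines with dox at 48 h and 10.97, 10.92 and 10.88 at 72 h. No cultured array came near the sorted ones. The gene rose by 1.48 ± 0.07 (adjusted p = 3.63e-14 by limma), 2.8-fold. Rpl41, a very short basic protein that bridges the subunits, had 11.52, 11.62, 11.60 and 11.48 in sorted LT-HSC and 11.88 to 11.93 in the 5 arrays with dox, and rose by 0.35 ± 0.05 (adjusted p = 1.22e-06). Rpsa, the small subunit protein also known as a laminin receptor, had 11.22, 11.31, 11.15 and 11.11 against 11.40 to 11.59. It rose by 0.31 ± 0.06 (adjusted p = 0.00016).

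Further genes rose in the same comparison. Rplp2 of the stalk rose by 0.32 ± 0.07 (adjusted p = 0.00067 by limma, 0.164 after quantile normalization), Rpl14 of the large subunit by 0.30 ± 0.08 (adjusted p = 0.0027, 0.102 after quantile normalization) and Rps15a by 0.32 ± 0.11 (adjusted p = 0.019). Rps15a lost its call at 0.322 after quantile normalization, at 0.081 without sorted LT-HSC replicate 4 and at 0.0625 without the 48 h array of B6-3. Rps10 and Rps19, both linked to Diamond-Blackfan anaemia, rose by 0.29 ± 0.05 and 0.19 ± 0.06, and Rps14 by 0.16 ± 0.05. After quantile normalization Rps19 differed by 0.032 (adjusted p = 0.759 by limma). Its call was also lost with these groups fitted alone (0.0624), without sorted LT-HSC replicate 3 (0.0623) and without the 48 h array of B6-2 (0.06). Rps14 was at 0.0719 with these groups fitted alone. The pseudogene Rps4l fell by 0.43 ± 0.11 (adjusted p = 0.0035), from 6.50, 6.85, 6.28 and 6.59 to between 6.01 and 6.21. After quantile normalization 11 of the 63 genes were called higher and 4 lower, against 15.8% and 21.8% of all measured genes. The share called higher was then close to the background.

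Without dox, LT-HSC-derived lines had 15 members called higher and 4 lower than sorted LT-HSC (23.8% and 6.3% of the members), against 19.2% and 19.7% of all measured genes. Both comparisons share the sorted arrays. The same markers were called 5 of 6, 6 of 6, 8 of 8 and 4 of 6 higher and 7 of 7 and 5 of 5 lower, with 1 mast cell marker lower, and their part was not tested. Rps27l rose by 1.41 ± 0.07 (adjusted p = 2.98e-14 by limma), with 10.68 to 10.89 on the 6 arrays. Rpl41, Rpsa and Rplp2 rose by 0.34, 0.30 and 0.28. Rplp2 was at 0.197 after quantile normalization, and Rpsa at 0.133 with the mean of its probe sets. The count called higher was 9 after quantile normalization, with the replicate number as a block and with these groups fitted alone, and that called lower was 7 after quantile normalization or a dim filter and 2 after median centring. In the same order, 18.6%, 19% and 17.4% of all genes in the same fit were called higher, and 21.4%, 26.2% and 17.5% lower. Rpl3l rose by 0.31 ± 0.07 (adjusted p = 0.00097), from 5.07 to 5.32 in sorted LT-HSC to 5.39 to 5.57 without dox, while the arrays with dox held 5.17 to 5.39 and gave no call (0.08, adjusted p = 0.47).

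Members lower without dox than in sorted LT-HSC included Rplp0, the anchor of the stalk and a common reference gene. Its signals were 12.10, 12.02, 12.14 and 12.00 in sorted LT-HSC, 11.85, 11.85 and 11.80 at 48 h and 11.97, 11.84 and 11.74 at 72 h, with no overlap. It fell by 0.22 ± 0.06 (adjusted p = 0.0022 by limma), a call lost at 0.328 with the mean of its probe sets in place of the brightest. Rps3a1 of the small subunit fell by 0.22 ± 0.07 (adjusted p = 0.0145) and Rpl10a of the large subunit by 0.16 ± 0.05 (adjusted p = 0.0132). Without sorted LT-HSC replicate 3 they were at 0.11 and 0.0601. The fourth was Rps4l, which fell by 0.53 ± 0.11 (adjusted p = 0.00026).

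In GMP-derived lines with dox, 16 members were higher than in sorted GMP and 1 was lower (25.4% and 1.6% of the members), against 10% and 9.76% of all measured genes, and the median was 0.0754 against -0.022. Markers moved here as well: 3 of 6 monocyte and 3 of 6 mast cell and basophil markers were lower and 2 of 6 late neutrophil markers higher, of 8 GMP markers 1 was higher and 2 lower, and their part in the result was not tested. Rpl12 rose by 0.63 ± 0.15 (adjusted p = 0.0032 by limma), from 5.85, 6.03, 6.13 and 6.34 in sorted GMP. Rps27l rose by 0.56 ± 0.08 (adjusted p = 6.78e-06), from 10.37, 10.34, 10.36 and 10.22 to 10.98, 11.01, 10.70 and 10.84. Rpl24, whose partial loss causes the mouse mutant Belly spot and tail, rose by 0.30 ± 0.05 (adjusted p = 7.72e-05), from 12.00, 12.03, 11.93 and 11.99 to 12.23, 12.30, 12.25 and 12.35. Rpl14 rose by 0.33 ± 0.08 (adjusted p = 0.0039), Rpl22 by 0.24 ± 0.07 (adjusted p = 0.0155) and Rpl13 by 0.23 ± 0.06 (adjusted p = 0.0064). These 6 calls held with each array left out in turn.

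Rpl10, the large subunit protein that joins last in the cytoplasm, was the 1 member that fell, by 0.14 ± 0.05 (adjusted p = 0.0382 by limma). Its signals were 11.98, 11.95, 12.00 and 11.95 in sorted GMP and 11.84, 11.84, 11.84 and 11.81 with dox, with no overlap, yet leaving out any single array of either group raised the adjusted p to between 0.0528 and 0.0975.

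Without dox, 3 members were higher than in sorted GMP and 3 lower (4.8% each), against 10.8% and 12.7% of all measured genes. Rps27l rose by 0.44 ± 0.08 (adjusted p = 0.00025 by limma), Rpl3l by 0.29 ± 0.08 (adjusted p = 0.011) and Rpl24 by 0.22 ± 0.05 (adjusted p = 0.0029). Rpl3l was at 0.0598 without the F6-6 array, and Rpl24 at 0.184 with the mean of its probe sets. Rpl10 fell by 0.20 ± 0.05 (adjusted p = 0.0043), from the values above to 11.73, 11.79 and 11.79. Rps15a fell by 0.34 ± 0.12 (adjusted p = 0.0397) and Rps3, at the mRNA entry of the small subunit, by 0.17 ± 0.06 (adjusted p = 0.0344). The call of Rps15a was lost without any of the 4 sorted GMP arrays and without replicate 1 or 2 of the lines (0.0532 to 0.366), and that of Rps3 ended at up to 0.142 when single arrays were left out.

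More genes of the other lists were lower than higher in GMP-derived lines without dox against sorted GMP, where 10.8% of all measured genes were called higher and 12.7% lower. Of 18 translation factors and TOP genes 1 was higher and 10 lower, of 10 chaperones 1 and 6, of 13 polymerase I factors 0 and 6, and of 14 regulators 1 and 7. Eef2, the translocation factor, fell by 0.51 ± 0.06 (adjusted p = 1.7e-06 by limma), Pabpc1, which binds poly(A) tails, by 0.37 ± 0.05 (adjusted p = 1e-05), Heatr3 by 0.69 ± 0.10 (adjusted p = 9.5e-06) and Polr1a by 0.86 ± 0.08 (adjusted p = 3.6e-08). The medians were -0.22, -0.37, -0.21 and -0.25, while that of the 63 genes was -0.016 (0.0008 after median centring). Late neutrophil markers moved with this comparison, from a summed log2 signal of 8.19 to 9.92 in sorted GMP to 13.18 to 13.30, and their part in the result was not tested. With dox the counts against sorted GMP were 4 higher and 5 lower, 2 and 1, 0 and 1, and 2 and 4, beside 10% and 9.76% of all measured genes. In LT-HSC-derived lines against sorted LT-HSC they were 6 and 4, 4 and 2, 1 and 1, and 3 and 4 with dox, and 5 and 7, 3 and 1, 2 and 4, and 3 and 5 without, beside shares of all measured genes from 17.9% to 19.7%.

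Fau rose in 3 of the 4 comparisons of lines with sorted cells: by 0.48 ± 0.06 (adjusted p = 8.5e-07 by limma) in LT-HSC-derived lines with dox, by 0.52 ± 0.06 (adjusted p = 8.3e-08) without, and by 0.26 ± 0.07 (adjusted p = 0.0051) in GMP-derived lines with dox. In GMP-derived lines without dox it differed by 0.17 ± 0.07 (adjusted p = 0.098).

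The sorted populations, the normal counterparts of the lines, were compared with each other. Of the 63 genes 7 were higher in GMP and 1 was lower (11.1% and 1.6%), lower shares than the 16.8% and 15.3% of all measured genes, and the median was -0.0008 against -0.0086. The sign of that median depended on scaling: it was -0.025 after quantile normalization and 0.041 after median centring. After quantile normalization 3 were higher and 6 lower, against 15% and 17% of all measured genes. With the mean of all probe sets 12 were higher, against 16.8% of all genes, and with these groups fitted alone 3, against 16%. Megakaryocyte markers, with 5 of 5 lower in GMP, and monocyte markers, with 5 of 6 higher, moved with this comparison. So did mast cell and basophil markers, with 4 of 6 higher and 1 lower. The part of all these markers in the result was not tested. Rps27l, with the values given before, was 0.92 ± 0.08 higher in GMP (adjusted p = 6.39e-10 by limma), 1.89-fold. Rpl7a of the large subunit was 0.57 ± 0.15 higher (adjusted p = 0.0033), with 7.99, 8.25, 7.99 and 8.08 in GMP and 7.34, 7.20, 7.95 and 7.54 in LT-HSC. The groups did not overlap, and LT-HSC replicate 3 lay close to GMP.

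Rpl10 was higher in GMP by 0.19 ± 0.05 (adjusted p = 0.0024 by limma), with 11.77, 11.83, 11.76 and 11.77 in LT-HSC, and 4 of its 5 probe sets gave the same sign. Rpsa was higher by 0.19 ± 0.06 (adjusted p = 0.0189), Rpl8, near the site of peptide bond formation, by 0.18 ± 0.06 (adjusted p = 0.0178), and the nucleolar paralog Rpl7l1 by 0.26 ± 0.09 (adjusted p = 0.0256). Rpl41 was higher by 0.16 ± 0.05 (adjusted p = 0.0147). Without LT-HSC replicate 4 the adjusted p was 0.0706 for Rpsa, 0.0589 for Rpl8, 0.107 for Rpl7l1 and 0.0592 for Rpl41. Without GMP replicate 3 it was 0.0909 for Rpsa, 0.0842 for Rpl8 and 0.142 for Rpl7l1, and Rpl7l1 was also lost without LT-HSC replicate 2 (0.0568) or GMP replicate 1 (0.0687). After quantile normalization these 4 were at 0.307, 0.759, 0.225 and 0.0987.

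Rpl22 was the 1 member lower in GMP, by 0.29 ± 0.07 (a difference of -0.29, adjusted p = 0.0016 by limma). Its signals were 9.09, 8.92, 9.13 and 9.25 in LT-HSC and 8.77, 8.75, 8.88 and 8.80 in GMP, with no overlap. The lines with dox held 8.96 to 9.24, and those without 8.65 to 9.13.

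**Figure D4:**
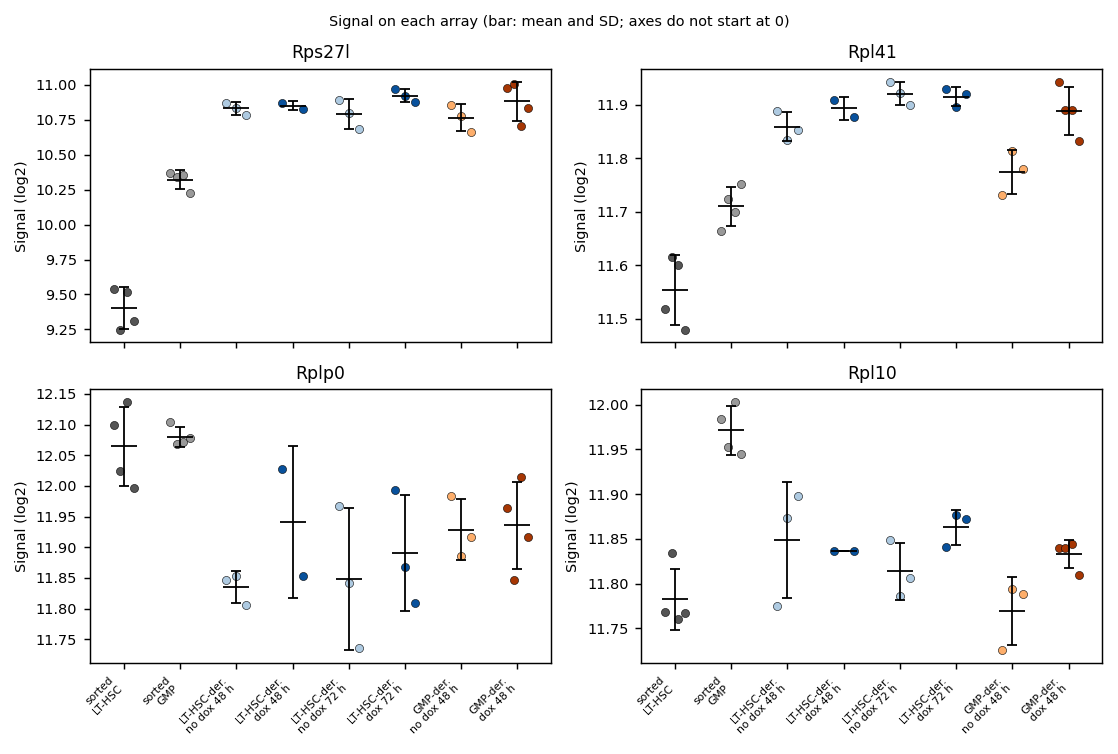
Log2 signal of Rps27l, Rpl41, Rplp0 and Rpl10 on each array by group, with bars for the mean and SD; the axes do not start at 0. Rps27l and Rpl41 are lowest in sorted LT-HSC, Rpl10 is highest in sorted GMP, and Rplp0 in LT-HSC-derived lines without dox lies below sorted LT-HSC.

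Among the other lists, sorted GMP had 4 higher and 1 lower of 18 translation factors and TOP genes, 5 and 1 of 10 chaperones, 1 and 0 of 13 polymerase I factors and 3 and 1 of 14 regulators, beside 16.8% and 15.3% of all measured genes. Eif3l, a subunit of eIF3, was 0.87 ± 0.07 higher (adjusted p = 3.2e-10 by limma), and Eif4ebp2, a repressor of cap binding, 0.53 ± 0.06 higher (adjusted p = 2.9e-07). Eif4a2, a form of the helicase eIF4A, differed by -0.49 ± 0.08 (adjusted p = 1.7e-05). Fau was 0.25 ± 0.07 higher (adjusted p = 0.004, 0.292 after quantile normalization).

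Of the 6 paralogs, Rps27l and Rpl3l are described above. Rpl39l, the paralog of Rpl39 known from testis, was dim, from 3.28 to 3.71 on every array except those of the GMP-derived line B6-2, at 4.44 with dox and 4.28 without. Rpl10l, also known from testis, lay between 4.81 and 5.43 and was called in no comparison. Rpl32l, Rps23rg1 and Rps19bp1 were called in none either. Rpl7l1 was higher in LT-HSC-derived lines with dox than in sorted LT-HSC by 0.25 ± 0.09 (adjusted p = 0.0224 by limma). The call was lost at 0.223 after quantile normalization. It was also lost without sorted LT-HSC replicate 2 (0.0525) or 4 (0.102), and without the B6-2 array with dox at 48 h (0.108) or 72 h (0.0584).

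Across the 8 group means, the subunit genes varied little, with a median range from lowest to highest group of 0.21 log2. The highest group was LT-HSC-derived with dox at 72 h for 19 of 54 subunits and GMP-derived with dox for 12. The lowest was GMP-derived without dox for 16 and LT-HSC-derived without dox at 72 h for 14, and no subunit was lowest in a group with dox. As a description over 8 groups, which share the normalization of their arrays, 39 of 54 subunit genes correlated above r = 0.5 with the median profile of the other subunits. Rps18 (0.95), Rpl4 (0.94), Rpl7 (0.93) and Rpl14 (0.92) were most like it. Rplp0 (-0.31), Rps25 (-0.055), Rps21 (-0.032), Rps3a1 (0.0080) and Rps12 (0.034) were least like it, as were Rps4l (-0.41) and Rpl3l (-0.37) outside the subunits. Over the 26 single arrays the median correlation between 2 subunit genes was 0.26.

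**Figure D5:**
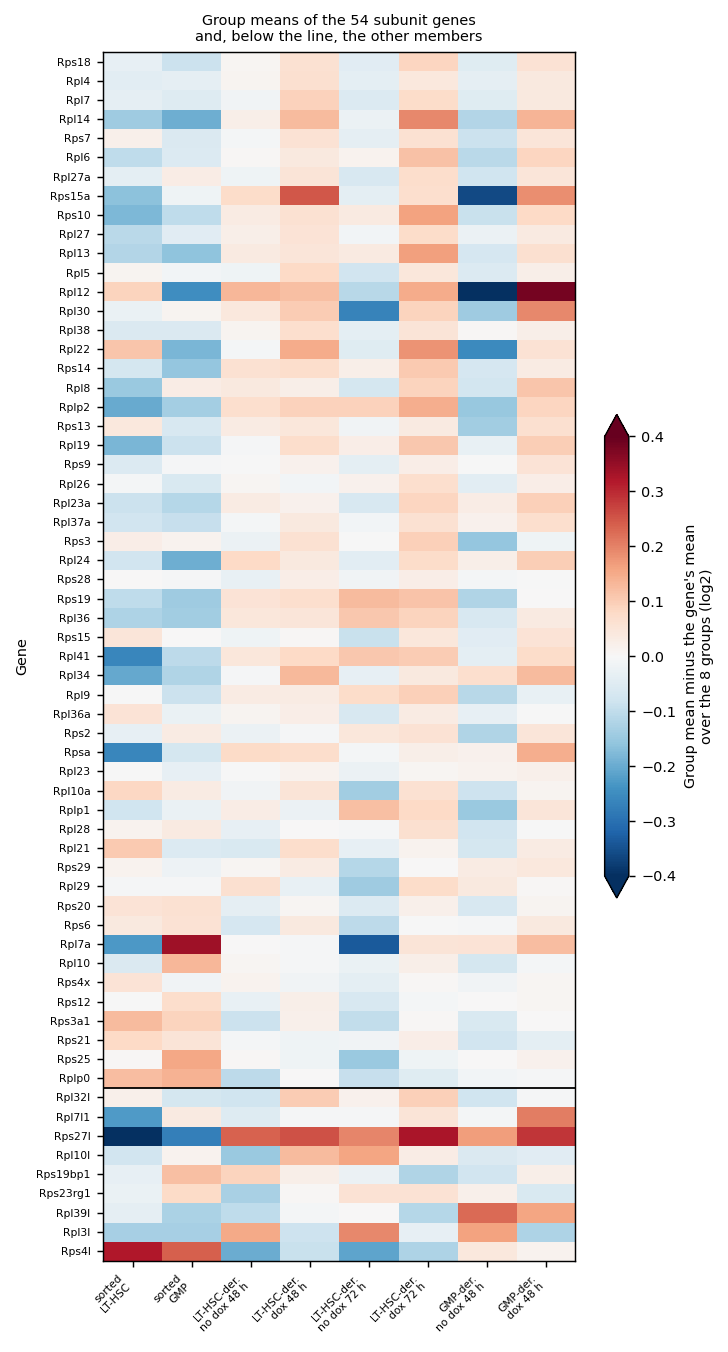
Group mean minus the gene's mean over the 8 groups (log2, colour scale ending at -0.4 and 0.4) for the 54 subunit genes, ordered by likeness to the median profile of the other subunits, and for 9 other members below the line. Most subunit rows are higher in a column with dox than in the matching column without. The subunit rows nearest the line, Rplp0 among them, are least like the median profile over the 8 groups.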

How the data were processed

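RNA was amplified and labelled from small samples per the labels' protocols. The authors deposited log2 probe set signals for 34760 probe sets. limma and R 3.1.1 are named in the submitters' processing notes, and how the signals were normalized was not given in the sources used here. Of the probe sets, 21640 had 1 symbol, and each of 19937 genes was represented by the one with the highest mean over all arrays, with no filter. limma 3.58.1 in R 4.3.3 fitted 8 group means to all 26 arrays for 12 comparisons, with 2-sided p-values adjusted by Benjamini-Hochberg over all genes and called under 0.05. The number of arrays limits the precision. Members and lists were chosen with earlier results of these data known. Named genes were up to 6 called members with the largest differences in each direction, the paralogs, members linked to anaemia or p53, Rps6, the stalk and Rpsa. Genes outside this rule were named for likeness or for their change after values were seen. Genes named from other lists were among the 4 called with the largest differences in each list.

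Pairing was read from the line names in the labels. Deviations from group means correlated within a line (median r = 0.25 in LT-HSC-derived and 0.33 in GMP-derived lines) more than between lines (-0.13 and -0.085). The sorted replicate numbers did not pair (0.02 to 0.06). The fits were tested on simulated data with independent arrays, which cannot show how the likeness of arrays of the same line affects them. Alternatives were quantile normalization, median centring, the replicate block, fits of the compared groups alone, a filter on dim probe sets, array weights, the mean of probe sets and each replicate left out.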

Additional observations from a re-analysis of the deposited data

Results flagged for a closer look

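A sample far from the others was found in 4 of the 105 groups of 4 arrays examined among the named genes, and chance alone flags about 1 in 20 groups. Rpl10 in sorted LT-HSC was at 11.83 in replicate 2, while the other 3 arrays lay between 11.76 and 11.77. Rpl7 in sorted LT-HSC was at 11.56 in replicate 3, against 11.47 to 11.48. In GMP-derived lines with dox, Rpl10 was at 11.81 in replicate 4 (B6-1), against 11.84 in the others, and Rpl22 was at 8.96 in replicate 1 (B6-2), against 9.06 to 9.07. Between origins, the dox difference of Polr1c at 48 h was 0.48 larger in GMP-derived than in LT-HSC-derived lines by the interaction test.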

How the results depend on the processing

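Counts of members called higher or lower depended on the settings as follows. Percentages in parentheses are the shares of all genes called in the same direction under that setting. In sorted GMP against sorted LT-HSC (7 higher, 1 lower) there were 3 (15%) and 6 (17%) after quantile normalization and 3 lower (19.9%) after the dim filter. With the mean of probe sets 12 were higher (16.8%). With the replicate number as a block 2 were lower (15.3%), and with the compared groups alone there were 3 (16%) and 2 (14.4%). With dox in LT-HSC-derived lines at 72 h (1 higher) there were 2 with the dim filter (7.89%) or array weights (4.87%) and 0 with the compared groups alone (1.29%). With dox in GMP-derived lines (5 and 1) there were 12 (12.2%) and 0 (10.3%) with the dim filter, and 10 higher (6.92%) with array weights. With the mean of probe sets 13 were higher (5.82%). With the replicate block by line 0 were lower (6.05%), and with the compared groups alone there were 3 (4.61%) and 0 (4.11%). Between origins without dox (2 higher) there was 1 with median centring (2.77%) and with the compared groups alone (1.36%). In LT-HSC-derived lines against sorted LT-HSC with dox (20 and 1) there were 11 (15.8%) and 4 (21.8%) after quantile normalization. With the dim filter (24.4%) or the block (18.8%) 2 were lower. The count called higher was 14 with the compared groups alone (17.1%) and 30 with the mean of probe sets (17.9%). Without dox (15 and 4) there were 9 (18.6%) and 7 (21.4%) after quantile normalization, 2 lower (17.5%) after centring and 7 lower (26.2%) after the dim filter. With the block 9 were higher (19%), and with the compared groups alone there were 9 (17.4%) and 2 (17%). In GMP-derived lines with dox against sorted GMP (16 and 1), 0 were lower with the block (9.79%) or the compared groups alone (10.5%). Without dox (3 and 3), 5 were lower after quantile normalization (13.2%), the dim filter (22.9%) or array weights (15.3%). After centring 1 was lower (11.3%), with the mean of probe sets 6 (12.7%) and with the block 2 (12.5%). The causes of these changes were not tested. The filter left fewer genes, and fits of the compared groups alone used fewer arrays.

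With each replicate left out, counts in the same order of comparisons ranged from 3 to 7 higher and 1 to 2 lower, from 0 to 2 higher, from 3 to 5 higher and 0 to 1 lower, from 0 to 2 higher, from 16 to 20 higher and 1 to 2 lower, from 10 to 15 higher and 2 to 5 lower, from 13 to 16 higher and 0 to 0 lower, and from 2 to 3 higher and 1 to 3 lower. Rpl8 in LT-HSC-derived lines without dox against sorted LT-HSC reversed after quantile normalization, at an adjusted p of 0.994. Of 67 calls of named members, 39 were lost in at least 1 setting. In the dox comparisons, where line names pair the arrays, the replicate block ended the call of Rpl3l (0.0867) and, of the other lists, those of Eif3l (0.0507), Tsr2 (0.0689) and Larp1 (0.184) in GMP-derived lines, Eif3f (0.0639) at 72 h and Polr1c (0.0915) between origins, and no other named call. Small groups and dim probe sets such as Rpl12 and Rpl3l limit the precision, whether signals near the top of the range do so for the 39 brightest genes was not tested, and 20 ribosomal protein symbols were not analysed here.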
